A study of Danio rerio with 4 samples.

Results

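The SLC25 carriers are a family of membrane proteins, most of them in the inner membrane of mitochondria, that exchange nucleotides, phosphate, metabolites, amino acids, cofactors and metals between mitochondrion and cytosol. They were followed here in RNA from endothelial cells sorted from zebrafish of 2 genotypes. A gene was taken as a carrier where its symbol began with slc25a and a digit, whatever the case, which gave 59 of the 31951 genes listed. Members were chosen by symbol alone, but the family itself was selected on the FPKM values of SLC25A5, which had a small spread and a large difference between the genotypes. That difference is therefore given as a description, without a test.

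Fish labelled kdrl:cxcr1 carried kdrl:mcherry and kdrl:cxcr1, of which kdrl:cxcr1 is a transgene that places the chemokine receptor gene cxcr1 under the endothelial promoter of kdrl. Fish labelled wild-type carried kdrl:mcherry alone, so the red reporter was common to both groups. Each of 2 independent clutches gave 1 library per genotype, 2 libraries a group and 4 in all, and no strain or age at sorting is named in the sources used here. Levels are FPKM (fragment numbers divided by transcript length and by the library's mapped fragments), a scale that corrects for length, so different genes can be set side by side.

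ADP/ATP carriers pass newly made ATP out of the mitochondrion in exchange for ADP, and the phosphate carrier SLC25A3 brings in the phosphate for ATP synthesis. Other members feed the organelle: aspartate/glutamate carriers serve the malate-aspartate shuttle, mitoferrins bring in iron for haem, and further carriers move dicarboxylates, nucleotides and cofactors. Endothelial cells are known for drawing much of their ATP from glycolysis, and they use their mitochondria largely for biosynthesis and signalling.

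The libraries differed in more than genotype, and the labels could not be checked from the transgene. The row cxcr1 read 12.8 and 0 FPKM in kdrl:cxcr1 cells of clutches 1 and 2, and 8.14 and 0 FPKM in wild-type cells of clutches 1 and 2, so it did not separate the groups. A second row, CXCR1, read 0 and 8.21 FPKM in kdrl:cxcr1 cells, and 3.89 and 0 FPKM in wild-type cells. All directions given here follow the labels of the libraries. Both clutch 2 libraries listed more genes at 0 (43.5% and 42% of genes) than both clutch 1 libraries (31.9% each). In this table a 0 can be a failed estimate, and depth is unknown. Of 14 endothelial marker rows matched by symbol, none was listed at 0, and their FPKM sum was 842 and 1065 in kdrl:cxcr1 cells and 840 and 1422 in wild-type cells. Of these 14 rows, 0 were higher and 1, plvapb, was lower without overlap (26% and 13.6% of all tested genes were). Their median difference in log2(FPKM + 1), kdrl:cxcr1 minus wild-type, was -0.07, against 0.16 for all tested genes, with 1 row above the median gene. Markers of other cells also differed between the labelled groups, though not in every list. Epidermal markers summed to 964 and 626 FPKM in kdrl:cxcr1 cells and 1066 and 1309 FPKM in wild-type cells, with 7 of 13 tested rows lower without overlap between groups (13.6% of all tested genes were). Markers of liver, gut, pancreas and yolk summed to 110 and 76.5 FPKM in kdrl:cxcr1 cells against 193 and 179 FPKM in wild-type cells. Of their 10 tested rows, 7 were lower without overlap. Among these, prss59.1 and TTR read 0 in both kdrl:cxcr1 libraries, so they reached the level needed for testing through wild-type cells alone. Nothing is therefore read from this count against the background. Neutrophil and macrophage markers summed to 1243 and 1816 FPKM in kdrl:cxcr1 cells against 809 and 1000 FPKM in wild-type cells. Of their 14 tested rows, 6 were higher and 2 lower without overlap (26% and 13.6% of all tested genes were). The lower row c1qc likewise read 0 in both kdrl:cxcr1 libraries and was tested through wild-type cells alone, so nothing is read from these counts. The marker ptprc was listed at 0 in all 4 libraries. Erythroid markers summed to 6551 and 1486 FPKM in kdrl:cxcr1 cells against 3084 and 1668 FPKM in wild-type cells. The row hbae3 made up most of each sum, at 6370 and 1348 FPKM in kdrl:cxcr1 cells and 2999 and 1580 FPKM in wild-type cells. The sums overlapped, as hbae3 did, while 6 of 12 tested rows were higher without overlap (26% of all tested genes were). Skeletal and cardiac muscle markers overlapped in sum, at 278 and 79.9 FPKM in kdrl:cxcr1 cells against 315 and 173 FPKM in wild-type cells. Of their 11 tested rows, 1 was higher and 1 lower without overlap (26% and 13.6% of all tested genes were). The share of these cells in any carrier difference was not tested, and in bulk RNA fewer cells of a type and less RNA per cell cannot be told apart.

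Most carriers averaged under 10 FPKM in these sorted cells, and 3 of the 59 held most of the family's FPKM in every library. SLC25A3 (ENSDARG00000025566), slc25a55a and SLC25A5 were the 3 carriers with a mean over 100 FPKM. A further 12 carriers averaged 10 to 100 FPKM, 28 averaged 1 to 10 FPKM, and 16 averaged under 1 FPKM. The median carrier averaged 3.3 FPKM, against 1.8 FPKM for the median of all 31951 genes listed and 4.21 FPKM for the median of those above 0 in any library. The 3 leading carriers made up 58.8% and 52.5% of the family's FPKM in kdrl:cxcr1 cells of clutches 1 and 2, and 62.4% and 61.3% in wild-type cells.

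**Figure D1:**
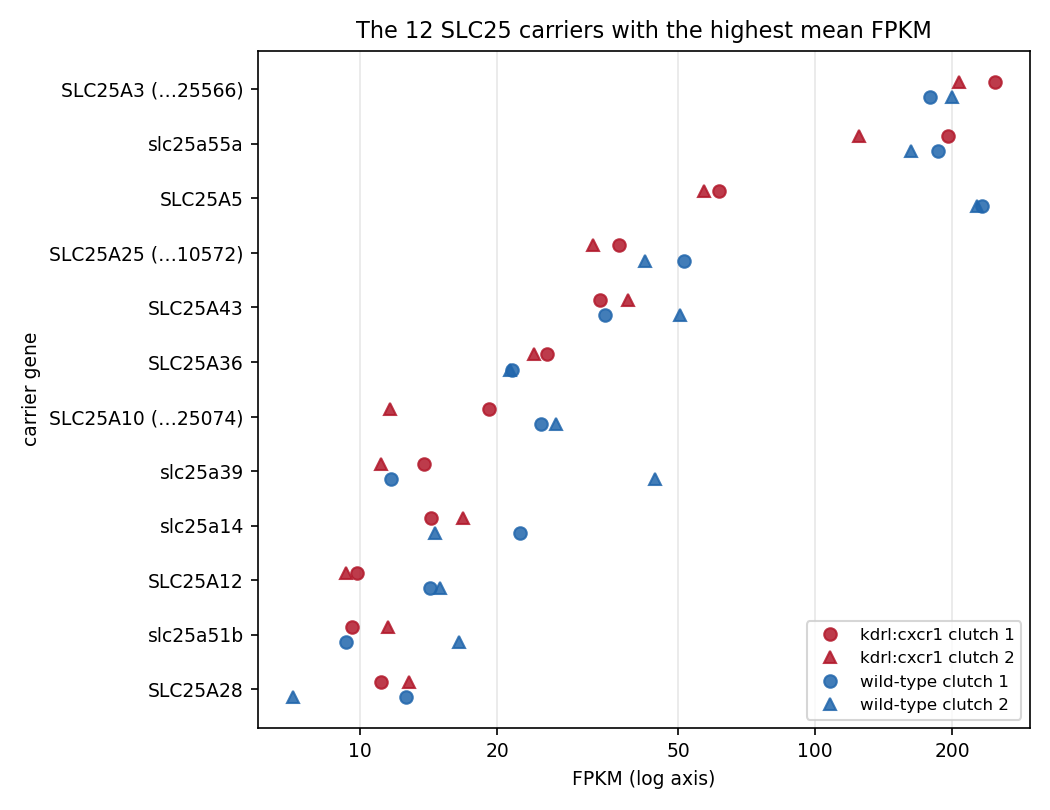
FPKM (log axis) of the 12 carriers with the highest mean over the 4 libraries, 1 point per library, red for kdrl:cxcr1 and blue for wild-type, circles for clutch 1 and triangles for clutch 2; rows that share a symbol are told apart by the last digits of their Ensembl identifier. The genotypes lie farthest apart for SLC25A5, at 61.5 and 56.9 FPKM in kdrl:cxcr1 cells and 233 and 227 FPKM in wild-type cells.

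SLC25A3, the mitochondrial phosphate carrier gene, had 248 and 207 FPKM in kdrl:cxcr1 cells of clutches 1 and 2, against 179 and 200 FPKM in wild-type cells. The groups did not overlap, but kdrl:cxcr1 clutch 2 stood only just above wild-type clutch 2. Its log2 fold change, here and below on the log2(FPKM + 1) scale, was 0.26 (SE 0.31) and did not pass limma's moderated test (adjusted p = 0.866), and it was 0.13 to 0.39 with 1 library left out. By mean level SLC25A3 ranked 377 of all 31951 genes. A second row under the same symbol, ENSDARG00000027424, reached 0.912 FPKM at most, so nearly all SLC25A3 signal came from 1 of the pair.

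The second carrier by mean level was slc25a55a. The name table used here gives it no role, and a RefSeq table lists slc25a22, a glutamate carrier name, among its older names. It read 196 and 125 FPKM in kdrl:cxcr1 cells and 186 and 162 FPKM in wild-type cells, and the groups overlapped. Its log2 fold change was -0.15 (SE 0.35; adjusted p by limma = 0.949) and was 0.17 without kdrl:cxcr1 clutch 2, so it has no settled direction. Its namesake slc25a55b was listed at 0 in both clutch 2 libraries and reached 0.737 FPKM in clutch 1.

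SLC25A5, an ADP/ATP carrier gene, read 61.5 and 56.9 FPKM in kdrl:cxcr1 cells of clutches 1 and 2, against 233 and 227 FPKM in wild-type cells. Each genotype's libraries lay close together, at 59.2 ± 3.25 FPKM in kdrl:cxcr1 cells and 230 ± 4.17 FPKM in wild-type cells (SD, n = 2 each), and far from the other genotype's. The kdrl:cxcr1 level was 0.264 times the wild-type level in clutch 1 and 0.251 times in clutch 2. On the log2 scale the difference was -1.90 in clutch 1 and -1.98 in clutch 2, and it ranged from -2.17 to -1.87 over every alternative processing tried. Some of these alternatives, such as a changed filter or the clutch as a block, could not move it. SLC25A5 was selected for its small spread and large difference, so neither the spread nor this range is support for a difference.

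**Figure D2:**
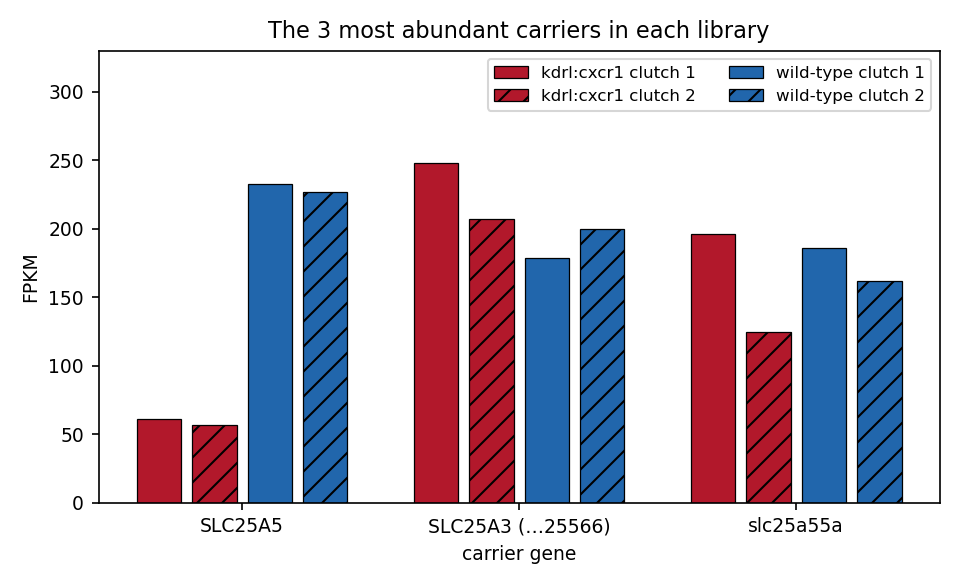
FPKM of the 3 leading carriers, 1 bar per library, red for kdrl:cxcr1 and blue for wild-type, plain bars for clutch 1 and hatched bars for clutch 2. SLC25A5 stands at 61.5 and 56.9 FPKM in kdrl:cxcr1 cells and 233 and 227 FPKM in wild-type cells, while the bars of SLC25A3 and slc25a55a span 125 to 248 FPKM over both genotypes.

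SLC25A5 carried almost all ADP/ATP carrier signal in both genotypes. SLC25A4, the form typical of heart and muscle in mammals, reached 1.28 FPKM at most. SLC25A6, another ADP/ATP carrier, read 2.0 and 0 FPKM in kdrl:cxcr1 cells and 0.597 and 0 FPKM in wild-type cells, and neither row reached the level needed for testing. SLC25A31, the remaining ADP/ATP carrier name, matched no symbol here. The ADP/ATP carriers together held 7.41% and 7.86% of the family's FPKM in kdrl:cxcr1 cells, against 24.4% and 23.6% in wild-type cells. The order of the leading carriers differed accordingly: SLC25A5 ranked 3 in both kdrl:cxcr1 libraries and 1 in both wild-type libraries. Share and rank restate the values that SLC25A5 was selected on, so they are no support for a difference. Because these genes are closely related in sequence and the counting rule is not known, reads could have been divided between copies.

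A ratio taken within a library does not depend on how libraries are scaled. SLC25A5 stood at 0.248 and 0.275 times SLC25A3 in kdrl:cxcr1 cells, against 1.3 and 1.13 times in wild-type cells. Against slc25a55a it stood at 0.315 and 0.455 times in kdrl:cxcr1 cells, and 1.25 and 1.4 times in wild-type cells. The ratio of slc25a55a to SLC25A3 was 0.788 and 0.606 in kdrl:cxcr1 cells, and 1.04 and 0.81 in wild-type cells, a far smaller difference. Such ratios show unequal levels within a library and do not say which gene changed. SLC25A5 was selected on these same values, so the larger differences in its ratios follow from that choice. They are no support for a difference.

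The family's summed FPKM was 859 and 741 in kdrl:cxcr1 cells of clutches 1 and 2, against 957 and 962 in wild-type cells. Without SLC25A5 the sums were 798 and 684 in kdrl:cxcr1 cells and 725 and 735 in wild-type cells, with overlap. As a share of all FPKM in a library, the carriers made up 0.0788% and 0.0625% in kdrl:cxcr1 cells and 0.097% and 0.0751% in wild-type cells, which overlapped with SLC25A5 included. All FPKM summed to 1090468 and 1185953 in kdrl:cxcr1 cells and 986557 and 1280969 in wild-type cells. The groups are thus not separated on this scale, though within each clutch the share was lower in kdrl:cxcr1 cells. The most abundant gene held 37.5% and 30.1% of all FPKM in kdrl:cxcr1 cells, and 39.8% and 24% in wild-type cells. Without that gene the carrier share was 0.126% and 0.0893% against 0.161% and 0.0988%. Without SLC25A5 as well, it was 0.117% and 0.0824% against 0.122% and 0.0755%, opposite ways in the clutches. The 56 carriers below the leading 3 summed to 354 and 352 FPKM in kdrl:cxcr1 cells, and 360 and 373 FPKM in wild-type cells. The kdrl:cxcr1 sums of these lower carriers thus lay just under the wild-type sums.

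Over the whole family, 46 of the 59 carriers reached at least 1 FPKM in at least 2 libraries and were tested, and 0 passed limma's test at an adjusted p of 0.05. Over all 17723 genes tested, 2 passed (0.0113%), and 0 passed with the clutch as a block. At an unadjusted p under 0.05 limma gave 2 of the 45 tested carriers other than SLC25A5, SLC25A33 and slc25a40, and 6.8% of all tested genes. Of the pair, slc25a40 reached 1 FPKM in kdrl:cxcr1 libraries only and so was kept by the filter through the group where it was high, and its p is no support for a difference. The adjusted p of these 45 carriers ran from 0.699 to 0.995, and the median SE of a carrier's log2 fold change was 0.62. Tested carriers had a median log2 fold change of -0.06, against 0.16 for all tested genes, with 21 above and 25 below the median gene. Groups did not overlap for 12 carriers that were higher in kdrl:cxcr1 cells (background 26.0% of all tested genes) and for 8 that were lower (background 13.6%). These counts include SLC25A5 and members kept by the filter through 1 group, so they are given as description. The 13 carriers that were not tested read at most 3.47 FPKM in any library. SLC25A1 (ENSDARG00000080000), SLC25A6, slc25a51a and slc25a55b were listed above 0 in both clutch 1 libraries and at 0 in both clutch 2 libraries, 4 of 59 carriers against 4.85% of all genes. The reverse held for 0 carriers and 0.254% of all genes. These 4 carriers read at most 2.32 FPKM.

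Within the clutches, 14 tested carriers were higher in kdrl:cxcr1 cells in both (background 36%), 12 were lower in both (background 21%), and 19 went opposite ways (40% of all tested genes). With a log2 fold change of at least 1 and no overlap, 5 carriers were higher (background 10.4%) and 3 lower (background 6.29%). The 5 higher ones had a larger difference in clutch 2 than in clutch 1. SLC25A5 was selected on these values, and slc25a40 and SLC25A15 (ENSDARG00000063539) reached 1 FPKM in libraries of 1 genotype only, so nothing is read from these counts against the background.

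**Figure D3:**
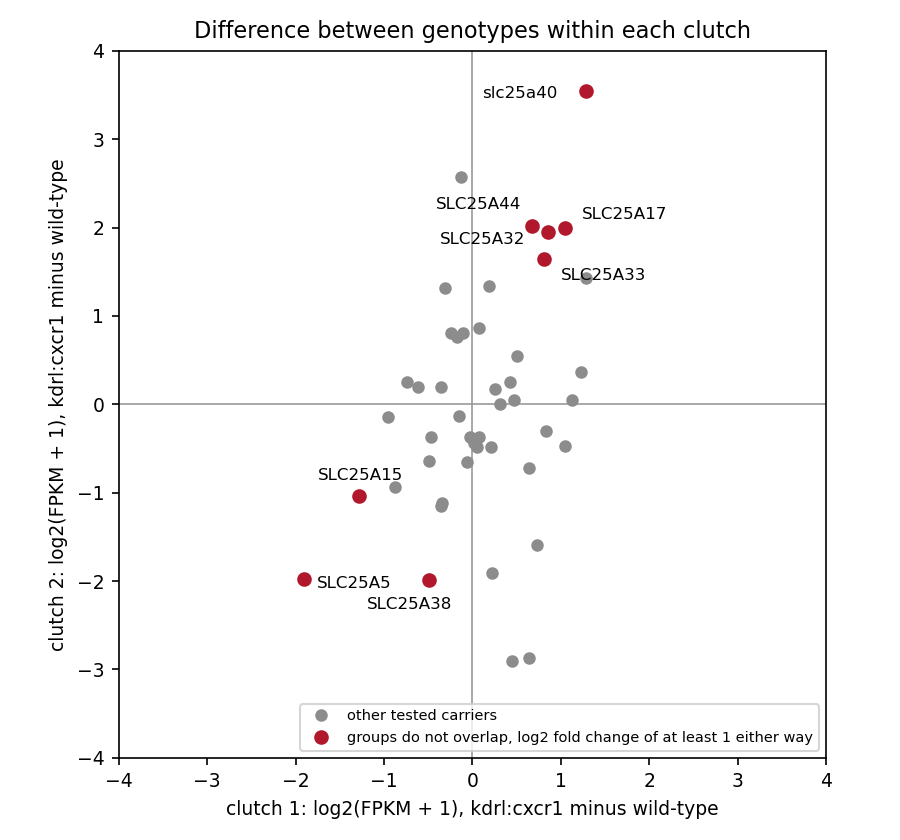
Difference in log2(FPKM + 1), kdrl:cxcr1 minus wild-type, in clutch 1 (x axis) and clutch 2 (y axis) for the 46 tested carriers, 1 point per gene; red points are the 8 carriers whose groups do not overlap and whose log2 fold change is at least 1 either way. SLC25A5 lies at -1.90 and -1.98, and slc25a40 at 1.29 and 3.54.

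Carriers of nucleotides and cofactors gave 3 of those 5 higher values and were 12 of the 46 tested carriers. In this group 6 tested rows were higher without overlap (background 26%). The 2 lower without overlap were slc25a36b and SLC25A20 (background 13.6%). The substrate groups were drawn after the values were seen, so nothing is read from the counts or the sum of this group. SLC25A33, a pyrimidine nucleotide carrier gene, read 13.2 and 17.8 FPKM in kdrl:cxcr1 cells, against 7.09 and 5.03 FPKM in wild-type cells. Its groups were well apart, with a difference of 1.23 on the log2 scale (SE 0.47; adjusted p by limma = 0.699), and leaving out 1 library gave 1.02 to 1.44. SLC25A36, the other pyrimidine nucleotide carrier gene, was the highest of this group at 25.7 and 24.1 FPKM in kdrl:cxcr1 cells and 21.5 and 21.3 FPKM in wild-type cells. The libraries of SLC25A36 were the most alike of the 12 leading carriers, and its log2 fold change of 0.21 became -0.01 with median-of-ratios scaling. Its relative slc25a36b went the other way, at 5.62 and 4.86 FPKM in kdrl:cxcr1 cells and 7.36 and 11.7 FPKM in wild-type cells.

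SLC25A17, whose product is a peroxisomal rather than a mitochondrial carrier of coenzyme A and other cofactors, read 3.77 and 11.5 FPKM in kdrl:cxcr1 cells, against 1.31 and 2.12 FPKM in wild-type cells. Its log2 fold change was 1.52 (SE 0.72; adjusted p by limma = 0.699), and leaving out 1 library gave 0.83 to 2.22. Both rows named SLC25A32, a folate and FAD carrier gene, were higher in kdrl:cxcr1 cells without overlap. The lower row, ENSDARG00000026835, read 4.85 and 4.43 FPKM in kdrl:cxcr1 cells against 2.21 and 0.406 FPKM in wild-type cells (log2 fold change 1.41, SE 0.71; adjusted p by limma = 0.699). Leaving out wild-type clutch 2 lowered this to 0.81, and leaving out another library gave up to 2.0. The higher row, ENSDARG00000089791, read 13.1 and 10.3 FPKM in kdrl:cxcr1 cells against 5.0 and 7.78 FPKM in wild-type cells. Summed over the 13 nucleotide, cofactor and acyl carriers, FPKM was 101 and 105 in kdrl:cxcr1 cells, against 75.7 and 83.6 in wild-type cells, 1.33 times as much in clutch 1 and 1.25 times in clutch 2. The NAD carrier gene slc25a51b, also among the 12 leading carriers, overlapped between groups at 9.61 and 11.5 FPKM in kdrl:cxcr1 cells and 9.28 and 16.5 FPKM in wild-type cells, and its log2 fold change of -0.22 was 0.17 without wild-type clutch 2.

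**Figure D4:**
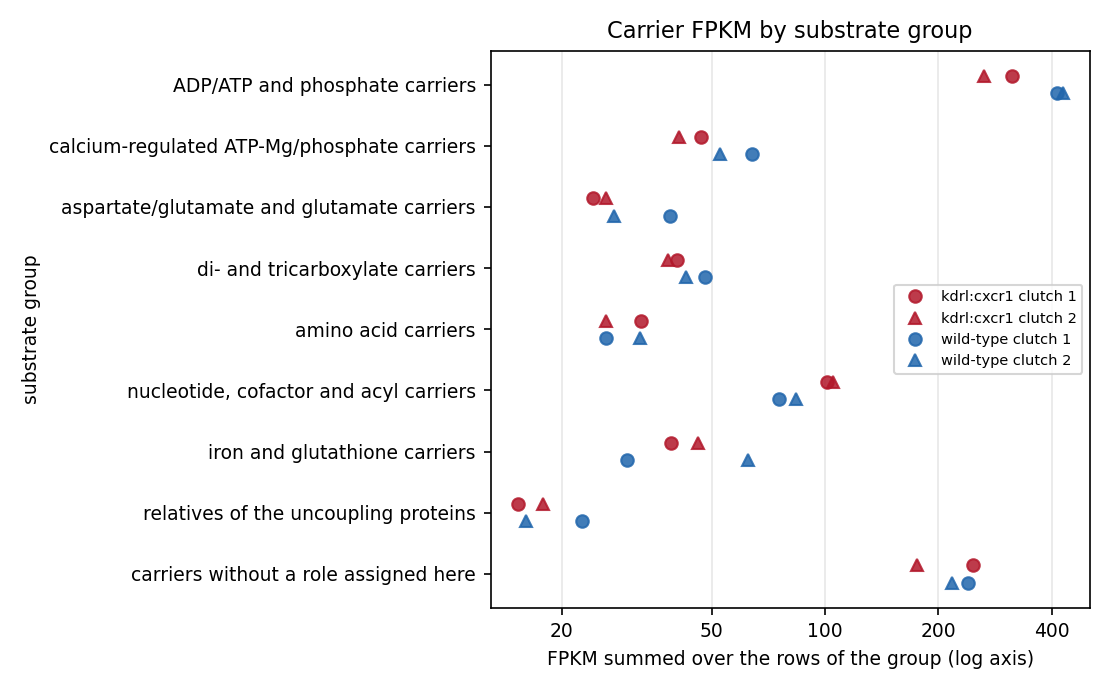
FPKM summed over the carriers of each substrate group (log axis), 1 point per library, red for kdrl:cxcr1 and blue for wild-type, circles for clutch 1 and triangles for clutch 2. The ADP/ATP and phosphate group reads 313 and 265 in kdrl:cxcr1 cells and 413 and 427 in wild-type cells. In that group SLC25A5, selected for its difference, is lower in kdrl:cxcr1 cells, while SLC25A3 is higher. The nucleotide, cofactor and acyl group reads 101 and 105 in kdrl:cxcr1 cells and 75.7 and 83.6 in wild-type cells.

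Iron and glutathione carriers showed no common direction. The glutathione carrier gene slc25a40 read 3.77 and 14.6 FPKM in kdrl:cxcr1 cells, against 0.952 and 0.345 FPKM in wild-type cells. Its log2 fold change of 2.41 (SE 0.80; adjusted p by limma = 0.699) was the highest of the tested carriers, and it was 1.56 to 3.27 with 1 library left out. As it reached 1 FPKM in kdrl:cxcr1 libraries only, neither that rank nor the p is support for a difference. Its close relative slc25a39, also a glutathione carrier gene, read 13.8 and 11.1 FPKM in kdrl:cxcr1 cells and 11.7 and 44.4 FPKM in wild-type cells. The single high value of wild-type clutch 2 set its log2 fold change of -0.84, which was 0.08 without that library. SLC25A37, mitoferrin 1, which developing zebrafish red cells need for haem, read 10.3 and 7.43 FPKM in kdrl:cxcr1 cells and 4.47 and 10.6 FPKM in wild-type cells. SLC25A28, mitoferrin 2 of non-erythroid cells, read 11.1 and 12.8 FPKM in kdrl:cxcr1 cells and 12.6 and 7.13 FPKM in wild-type cells, and its log2 fold change of 0.29 was -0.08 without wild-type clutch 2. Both mitoferrins overlapped between the groups.

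Among amino acid carriers, the branched-chain amino acid carrier gene SLC25A44 was higher and a glycine and an ornithine carrier row were lower in kdrl:cxcr1 cells, none past the test. SLC25A44 (ENSDARG00000035905) read 14.8 and 14.3 FPKM in kdrl:cxcr1 cells, against 8.98 and 2.76 FPKM in wild-type cells (log2 fold change 1.34, SE 0.62; adjusted p by limma = 0.699). Leaving out wild-type clutch 2 lowered this to 0.64, and leaving out another library gave up to 2.05. A second SLC25A44 row, ENSDARG00000045927, read 2.72 and 2.22 FPKM in kdrl:cxcr1 cells against 1.76 and 1.7 FPKM in wild-type cells, the same direction at a lower level. SLC25A38, the mitochondrial glycine carrier of haem synthesis, was lower in both rows within each clutch. Its lower row, ENSDARG00000059805, read 1.07 and 0 FPKM in kdrl:cxcr1 cells against 1.9 and 2.98 FPKM in wild-type cells (log2 fold change -1.24, SE 0.74; adjusted p by limma = 0.721), and -1.76 to -0.72 with 1 library left out. Its higher row, ENSDARG00000074533, read 3.49 and 8.04 FPKM in kdrl:cxcr1 cells against 7.28 and 16.4 FPKM in wild-type cells. In the higher row clutch 2 exceeded clutch 1 by slightly more than wild-type exceeded kdrl:cxcr1, so the groups overlapped. SLC25A15 (ENSDARG00000063539), an ornithine carrier gene, read 0.302 and 0 FPKM in kdrl:cxcr1 cells against 2.16 and 1.06 FPKM in wild-type cells (log2 fold change -1.16, SE 0.72; adjusted p by limma = 0.728). This row reached 1 FPKM in wild-type libraries only, so its p is no support for a difference. The second SLC25A15 row, ENSDARG00000062271, went opposite ways in the clutches, at 2.53 and 0.113 FPKM in kdrl:cxcr1 cells and 1.58 and 7.3 FPKM in wild-type cells.

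The ATP-Mg/phosphate, aspartate/glutamate and di- and tricarboxylate carriers had median log2 fold changes of -0.19 over 4, -0.55 over 3 and 0.01 over 6 tested rows, and none passed the test. SLC25A25 (ENSDARG00000010572), a calcium-regulated ATP-Mg/phosphate carrier gene and the fourth carrier by mean level, read 37 and 32.5 FPKM in kdrl:cxcr1 cells, against 51.5 and 42.3 FPKM in wild-type cells. The difference was -0.42 on the log2 scale (SE 0.34, adjusted p by limma = 0.778), at -0.47 in clutch 1 and -0.37 in clutch 2. A second SLC25A25 row, ENSDARG00000035468, went opposite ways in the clutches. That row read 3.78 and 0.401 FPKM in kdrl:cxcr1 cells and 2.05 and 1.31 FPKM in wild-type cells. SLC25A12, an aspartate/glutamate carrier gene of the malate-aspartate shuttle, read 9.83 and 9.28 FPKM in kdrl:cxcr1 cells against 14.2 and 15 FPKM in wild-type cells (log2 fold change -0.56, SE 0.42; adjusted p by limma = 0.761). Its libraries were close within each genotype, while the other carrier of this kind, SLC25A13, was listed at 0 in 3 libraries and at 0.109 FPKM in wild-type clutch 1. SLC25A10 (ENSDARG00000025074), the dicarboxylate carrier gene, read 19.2 and 11.6 FPKM in kdrl:cxcr1 cells against 24.9 and 26.9 FPKM in wild-type cells (log2 fold change -0.75, SE 0.42; adjusted p by limma = 0.713), and -1.09 to -0.41 with 1 library left out. The oxoglutarate carrier gene SLC25A11 went the other way, at 9.08 and 16.3 FPKM in kdrl:cxcr1 cells and 8.63 and 8.54 FPKM in wild-type cells, with nearly all of the difference in clutch 2. Summed FPKM of the ATP-Mg/phosphate group was 0.735 and 0.777 times the wild-type sum in clutches 1 and 2. The ratio was 0.626 and 0.956 for the aspartate/glutamate and glutamate carriers, and 0.841 and 0.893 for the di- and tricarboxylate group.

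The remaining leading carriers had no settled direction. SLC25A43, a carrier with no substrate assigned here, read 33.7 and 38.7 FPKM in kdrl:cxcr1 cells and 34.5 and 50.4 FPKM in wild-type cells, and its log2 fold change of -0.20 was 0.07 without wild-type clutch 2. The uncoupling protein relative slc25a14 read 14.3 and 16.8 FPKM in kdrl:cxcr1 cells and 22.4 and 14.6 FPKM in wild-type cells, and -0.21 was 0.08 without wild-type clutch 1. UCP2, an uncoupling protein of the same family that the symbol rule does not cover, read 78.6 and 117 FPKM in kdrl:cxcr1 cells, against 97.4 and 136 FPKM in wild-type cells. It was lower in kdrl:cxcr1 cells within each clutch and higher in clutch 2 within each genotype, and in each library it stood above every carrier outside the leading 3. UCP1 reached 3.61 FPKM at most, and ucp3 was listed at 0 throughout. MTCH2, an outer membrane member of the family, read 24.7 and 31.4 FPKM in kdrl:cxcr1 cells and 26.6 and 21.1 FPKM in wild-type cells.

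Genes that work with the carriers were compared in the same fit, together with the family members under other symbols given above. Of 54 tested genes in these 6 lists, 0 passed limma's test, with 4 (TIMM22, smdt1b, FECH and MDH2) at an unadjusted p under 0.05 (background 6.8%). Carriers reach the inner membrane through the Tom receptors, the small Tim chaperones and the TIM22 complex. The 18 tested genes of this import route had a median log2 fold change of 0.82, with 9 higher in kdrl:cxcr1 cells without overlap (background 26%) and 0 lower. TIMM22, the pore of the carrier translocase, read 12.1 and 32.5 FPKM in kdrl:cxcr1 cells, against 0.538 and 0 FPKM in wild-type cells. It was thus kept by the filter through kdrl:cxcr1 cells alone. As TIMM22 is among the 9 and among the 4, nothing is read from either count against the background. The small Tim gene TIMM9 read 8.39 and 11.9 FPKM in kdrl:cxcr1 cells against 5.1 and 2.5 FPKM in wild-type cells (log2 fold change 1.25, SE 0.57; adjusted p by limma = 0.699). The receptor gene tomm20a read 39.9 and 90.5 FPKM in kdrl:cxcr1 cells against 19.1 and 37.9 FPKM in wild-type cells, while TOMM40, the outer membrane pore, overlapped at 86.4 and 65.6 FPKM in kdrl:cxcr1 cells and 68.7 and 132 FPKM in wild-type cells.

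The outer membrane channels through which carrier substrates pass were split. VDAC2 read 272 and 301 FPKM in kdrl:cxcr1 cells, against 177 and 169 FPKM in wild-type cells (log2 fold change 0.72, SE 0.30; adjusted p by limma = 0.699). VDAC3 read 87.4 and 63.4 FPKM in kdrl:cxcr1 cells against 112 and 154 FPKM in wild-type cells, and VDAC1 66.9 and 47.1 FPKM in kdrl:cxcr1 cells against 81.2 and 110 FPKM in wild-type cells. The 3 channel genes together summed to 426 and 412 FPKM in kdrl:cxcr1 cells, and 371 and 433 FPKM in wild-type cells, with overlap.

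Haem synthesis genes, which use the iron and glycine brought in by carriers, had a median log2 fold change of 0.97 over 11 tested rows. All 11 were above the median gene and 7 were higher without overlap (background 26%). The list was chosen with earlier results of these data known, so nothing is read from these counts against the background. FECH, the enzyme that puts iron into haem, read 21.7 and 19.4 FPKM in kdrl:cxcr1 cells, against 8.32 and 8.81 FPKM in wild-type cells. ALAS1 read 18.9 and 26.5 FPKM in kdrl:cxcr1 cells against 13.4 and 5.13 FPKM in wild-type cells, and its erythroid counterpart alas2 read 20.9 and 15.6 FPKM in kdrl:cxcr1 cells against 9.99 and 1.02 FPKM in wild-type cells. Erythroid markers stood higher without overlap for 6 of 12 tested rows, as given above, and alas2 is among them. The remaining tested erythroid rows overlapped between the groups. In clutch 2 the erythroid sum was lower in kdrl:cxcr1 cells, at 1486 against 1668 FPKM. Most of that sum was the single row hbae3, at 1348 against 1580 FPKM, so it says little of the other erythroid rows. The part of red cells in the haem synthesis list was not tested. Pyruvate and calcium transport genes had a median of 0.63 over 9 rows, led by smdt1b, a subunit of the calcium uniporter, at 62.4 and 98.4 FPKM in kdrl:cxcr1 cells against 33.1 and 41.7 FPKM in wild-type cells. Enzymes of the malate-aspartate shuttle and citrate export had a median of 0.26 over 10 rows. In that list MDH2, mitochondrial malate dehydrogenase, read 265 and 193 FPKM in kdrl:cxcr1 cells against 98.4 and 108 FPKM in wild-type cells, and GOT1, the cytosolic aspartate aminotransferase, 11.6 and 5.52 FPKM in kdrl:cxcr1 cells against 18.2 and 15 FPKM in wild-type cells.

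**Figure D5:**
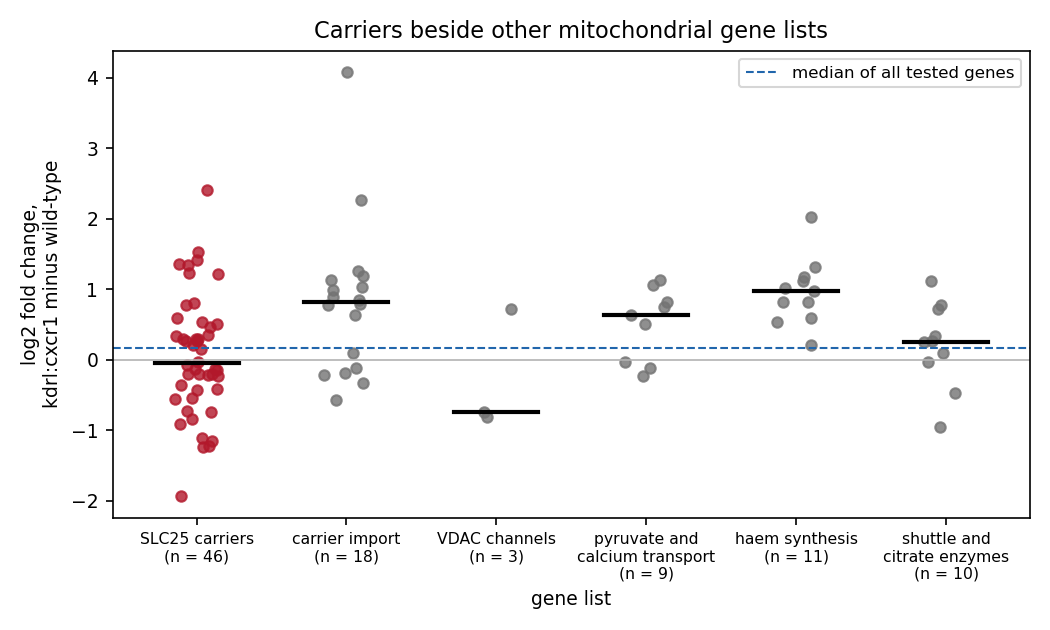
Log2 fold change on the log2(FPKM + 1) scale, kdrl:cxcr1 minus wild-type, for tested genes of the carrier family (red) and of other mitochondrial lists (grey), 1 point per gene, with sideways scatter added for legibility; black bars are list medians and the dashed line is the median of all tested genes, 0.16. The carriers centre on -0.06 and span -1.94 to 2.41, while the import list centres on 0.82 and haem synthesis on 0.97. The lists were chosen with earlier results of these data known, so their medians are given as description.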

How the data were processed

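Per the labels' protocols, libraries from RNA of sorted endothelial cells were prepared with a SMARTer kit for low input. FPKM values were deposited by the authors, 1 column per library; cutadapt, TopHat2 2.0.11, Cufflinks 2.2.1 and build GRCz10 are named in the submitters' processing notes. The sources used here do not name the annotation, filters, strand setting or a normalization between libraries. Low values showed no whole-read steps, so depth is unknown. Symbols covered 26120 of 31951 identifiers; capitals were kept as listed. Of the 59 carriers, 18 share a symbol with another. List members ending in a or b were also matched to capitals without it.

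Values were tested as log2(FPKM + 1) with limma 3.58.1 (R 4.3.3), with an intensity trend, keeping genes with at least 1 FPKM in at least 2 libraries, two-sided, with Benjamini-Hochberg adjustment over 17723 genes. An exact permutation of 2 against 2 libraries cannot go below 0.333, so these p-values rest on limma's pooled spread. Clutches pair the libraries per the labels; deviations from group means correlated at 0.116 within a clutch. Alternatives were other pseudocounts, filters and scalings, no trend, a clutch block and leaving out each library.

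Members and lists were chosen with earlier results of these data known. Carriers named were the 12 highest by mean FPKM, those not overlapping with an absolute log2 fold change of at least 1, and SLC25A5. Other carriers named beside them, and TOMM40, were chosen after their values were seen, as was the grouping by substrate; up to 3 genes by p were named from each related list.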

Additional observations from a re-analysis of the deposited data

How the results depend on the processing

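The number of carriers past the threshold was 0 under every alternative. All genes past it, 2 as reported, numbered 0 with a pseudocount of 0.1, without a filter, without the intensity trend, with the clutch as a block, and (0 to 0) with any 1 library left out; the cause was not tested. With the clutch as a block the pairing changed no other call. The median of the carriers minus that of all genes, -0.21, was -0.09 with a pseudocount of 5 and -0.07 after quantile normalization. It was -0.29 with a pseudocount of 0.1 and -0.3 with a filter of at least 5 FPKM in at least 2 libraries. With 1 library left out it was -0.25 to -0.05. The share held by ADP/ATP carriers averaged 7.63% in kdrl:cxcr1 and 24% in wild-type cells. It was 10.7% and 29.9% without SLC25A3, the carrier with the highest mean over all libraries. Leaving that carrier out makes the denominator smaller, so the share rises by construction. The share rests on SLC25A5, selected on these values, so its steadiness is no support for a difference. Of 242 values of the 19 named carriers, 7 turned sign and 235 did not, but many of these could not have turned. A changed filter, no intensity trend or the clutch block leaves a log2 fold change as it was. Leaving out 1 library cannot turn the sign of a carrier whose groups do not overlap. SLC25A36 became -0.01 with median-of-ratios scaling. With 1 library left out, slc25a55a ran from -0.47 to 0.17, slc25a14 from -0.51 to 0.08, SLC25A43 from -0.47 to 0.07, slc25a39 from -1.76 to 0.08, slc25a51b from -0.60 to 0.17 and SLC25A28 from -0.08 to 0.67; the cause was not tested. Carriers under about 5 FPKM depend on the pseudocount: over all alternatives slc25a40 ranged from 1.22 to 3.46, SLC25A38 (ENSDARG00000059805) from -2.86 to -0.43 and SLC25A15 (ENSDARG00000063539) from -3.01 to -0.36. FPKM without counts gives no counting error.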

Other observations

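Some carriers followed the clutch rather than the genotype. SLC25A46, an outer membrane member of the family linked to mitochondrial shape, read 8.87 and 11.3 FPKM in the kdrl:cxcr1 and wild-type libraries of clutch 1, and 2.62 and 0.449 FPKM in those of clutch 2. SLC25A26, the carrier of the methyl donor S-adenosylmethionine, read 5.78 and 7.66 FPKM in clutch 1, and 2.1 and 1.7 FPKM in clutch 2, in the same order. These rows were picked after their values were seen.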
